A study of Mus musculus with 8 samples.

Results

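The genes described here encode proteins that regulatory T cells (Tregs) secrete or display, and the TGF-beta receptors and SMAD proteins through which Tregs sense one of them. They are Tgfb1, Lrrc32, Tgfbr1, Tgfbr2, Smad3, Smad7, Il10, Ebi3, Areg and Csf1. They were chosen by name, 10 of the 56980 genes counted in the series, with earlier results of these data known, although the rule itself uses no measured value. Each was found in the table under its Ensembl identifier.

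Tregs were sorted by flow cytometry from the peripheral blood of male C57BL/6j mice of one age, with 4 libraries per group. The HADA mice (high altitude de-acclimatization) had lived for weeks in a hypobaric chamber that simulated a high altitude, and were then moved back to normoxia. The control mice stayed in normoxia throughout. Neither group carried an introduced mutation or drug that the labels name. The study defines sorted Tregs as CD4+CD25+ in its co-culture assay and does not repeat the gate for sequencing, and the day of the sort after the return to normoxia was not given in the sources used here. Nothing there says whether each library came from a separate mouse, so the p-values below measure the spread between these libraries, which may be partly technical.

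Total counts ranged from 22929193 to 28240337 in HADA and from 14452433 to 22584062 in control replicates 2 to 4, but control replicate 1 had 1477431. Results that change without control replicate 1 are given both ways. Foxp3, the factor that defines Tregs, was listed at 0 throughout, and other genes cover 100% of its span. All 1077 of the 1077 protein-coding genes covered in this way were listed at 0, so Foxp3 could not be used to check the sort. Il2ra, the gene of CD25, had a log2 fold change of 2.57 ± 1.05 (SE) in HADA against control (edgeR, adjusted p = 0.156). Cd4 had 0.63 ± 1.14 (edgeR, adjusted p = 0.721).

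TGF-beta is made as a latent precursor that cannot signal until it is released. GARP, the product of Lrrc32, holds the latent form on the surface of activated Tregs, where integrins can free it. The free ligand brings together its type II receptor (Tgfbr2) and its type I receptor (Tgfbr1), and the type I receptor phosphorylates SMAD2 and SMAD3, which enter the nucleus. SMAD7 is induced by the pathway and blocks it at the receptor. Tregs also use IL-10 and IL-35 to restrain other immune cells, and release amphiregulin in tissue repair.

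Promoters of the receptors and of Csf1 are shown because the receptors work as a pair and Csf1 was among the genes with the largest differences between group means. They come from RefSeq, were matched once each to GRCm39 and hold the 250 bases before the start of the gene. RefSeq windows were matched for 7 of the 10 genes. Short motifs were searched on both strands: TGACNNNGC, the core of the antioxidant response element that NRF2 binds, CAGAC, a SMAD-binding box, and GTAAACA, a forkhead site. Capitals mark a match, and the motifs did not overlap in the windows shown. The Tgfbr1 window (chr4:47352972-47353221, plus strand) holds TGACNNNGC read on the minus strand, 214 to 206 bases before the start. The Tgfbr2 window (chr9:116004432-116004681, minus strand) holds the same motif on the opposite strand to the gene, 192 to 184 bases before the start, and CAGAC 160 to 156 bases before it. The Csf1 window (chr3:107667786-107668035, minus strand) holds none of the motifs. Among the 8 windows of the 7 genes, a further Tgfbr1 window, at a start 32994 bases inside the gene, and the Ebi3 window hold CAGAC, and those of Tgfb1, Smad3 and Areg hold no match.
Tgfbr1: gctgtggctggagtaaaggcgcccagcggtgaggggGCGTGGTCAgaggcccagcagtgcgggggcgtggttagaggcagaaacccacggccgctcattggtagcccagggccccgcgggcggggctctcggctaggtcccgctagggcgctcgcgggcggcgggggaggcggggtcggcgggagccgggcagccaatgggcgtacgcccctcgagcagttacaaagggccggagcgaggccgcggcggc
Tgfbr2: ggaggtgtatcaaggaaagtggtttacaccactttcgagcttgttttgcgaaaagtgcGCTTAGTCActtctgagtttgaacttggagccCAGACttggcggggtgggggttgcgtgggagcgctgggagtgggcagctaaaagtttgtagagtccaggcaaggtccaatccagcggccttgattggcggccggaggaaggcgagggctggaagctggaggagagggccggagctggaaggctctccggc
Csf1: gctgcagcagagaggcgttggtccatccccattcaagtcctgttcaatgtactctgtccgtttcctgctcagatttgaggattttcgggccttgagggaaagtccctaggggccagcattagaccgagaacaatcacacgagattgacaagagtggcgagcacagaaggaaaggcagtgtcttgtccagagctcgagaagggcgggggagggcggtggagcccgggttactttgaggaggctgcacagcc
Of 32851 RefSeq windows of this length, 10.2% hold TGACNNNGC, 42.2% hold CAGAC and 3.17% hold GTAAACA. A match is a run of letters and not a measured binding site. No chromatin data were used here.

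Lrrc32 was higher in every HADA library than in any control library, and Tgfb1, the ligand that GARP holds, was not. Lrrc32 (ENSMUSG00000090958, chromosome 7, 98138490 to 98151388, plus strand) had 15.4, 6.07, 21.3 and 114 CPM (the usual per-library scaling of counts, normalized with TMM for library composition) in HADA replicates 1 to 4. It had 4.35, 0.939, 0.349 and 0.406 CPM in control replicates 1 to 4. HADA replicate 4 was the highest library, and the highest control library was replicate 1, with 7 counts. The means were 39.3 ± 50.4 CPM in HADA and 1.51 ± 1.91 CPM in control (SD, n = 4). The log2 fold change was 4.92 ± 1.32 (SE), and it missed the threshold after adjustment over all genes (edgeR's quasi-likelihood test, Benjamini-Hochberg adjusted p = 0.073). In bulk libraries, fewer cells of a type and less RNA per cell cannot be told apart, and this holds for every gene below. DESeq2 gave an adjusted p of 6.2e-05, and edgeR without control replicate 1 gave a log2 fold change of 6.26 with an adjusted p of 0.014. Without HADA replicate 4 the log2 fold change was 3.59, and Lrrc32 did not pass. Over 16 alternative settings the adjusted p of Lrrc32 ranged from 6.2e-05 to 0.754.

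Tgfb1 (ENSMUSG00000002603, chromosome 7, 25386427 to 25404502, plus strand) had 3.24, 18.0, 31.0 and 2.47 CPM in HADA replicates 1 to 4. It had 34.8, 1.85, 144 and 0.464 CPM in control replicates 1 to 4. The groups overlapped, and control replicate 3, with 4122 counts, stood above all other libraries. Its log2 fold change was -1.73 ± 1.45 (SE) (edgeR, adjusted p = 0.424). Without control replicate 3 it was 0.19 (edgeR, adjusted p = 0.943), so the sign of the Tgfb1 difference rested on 1 library.

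**Figure D1:**
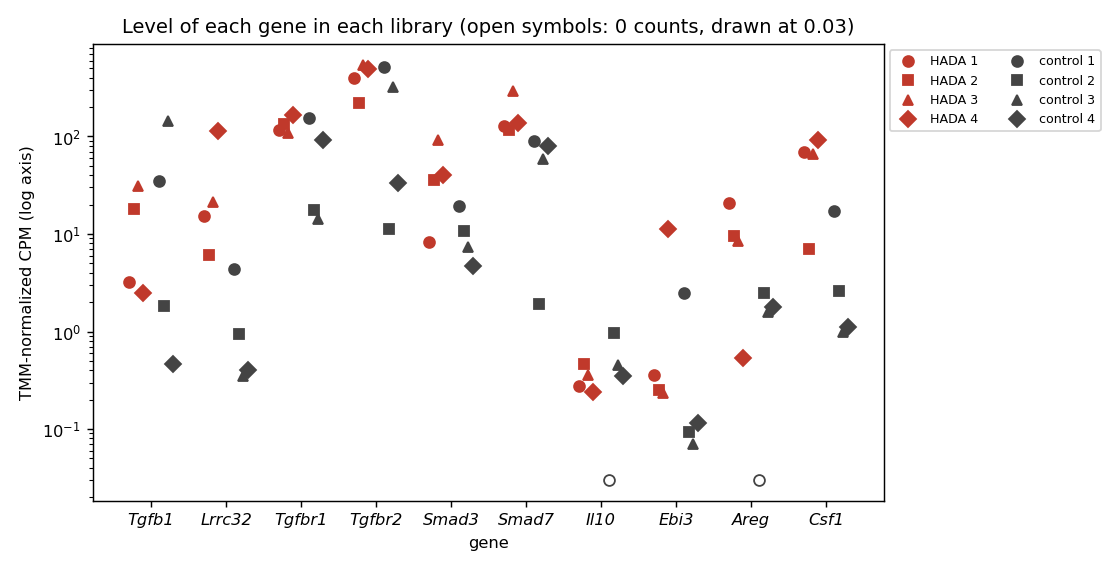
TMM-normalized CPM of each of the 10 genes in each library, on a log axis; red symbols are HADA and dark symbols control, with 1 shape per replicate number. Lrrc32 and Smad7 have every HADA library above every control library, and Il10 lies at or below 0.971 CPM in all 8.

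Both receptors had higher means in HADA, and in both control replicate 1 lay among the HADA values. Control libraries below every HADA library numbered 3 of 4 for Tgfbr1 and 2 of 4 for Tgfbr2. Tgfbr1 (ENSMUSG00000007613, chromosome 4, 47353222 to 47414931, plus strand) had 118, 135, 110 and 164 CPM in HADA replicates 1 to 4 and 154, 17.8, 14.4 and 91.3 CPM in control replicates 1 to 4. The HADA libraries lay within a narrow range, and control replicates 2 and 3 were the low ones. HADA against control gave a log2 fold change of 0.93 ± 0.86 (SE) (edgeR, adjusted p = 0.470), and 1.79 without control replicate 1 (edgeR, adjusted p = 0.111), where the groups no longer overlapped. Tgfbr2 (ENSMUSG00000032440, chromosome 9, 115913361 to 116004428, minus strand) had 398, 218, 544 and 493 CPM in HADA replicates 1 to 4. Its control libraries had 520, 11.2, 319 and 33.1 CPM. Control replicates 1 and 3 lay within the HADA range, and control replicates 2 and 4 far below it. On the log2 scale the difference was 0.91 ± 1.01 (SE) (edgeR, adjusted p = 0.550), and 1.90 without control replicate 1 (edgeR, adjusted p = 0.203). Over 17 alternatives the adjusted p stayed between 0.111 and 0.978 for Tgfbr1 and between 0.203 and 0.986 for Tgfbr2. Drawn down to the counts of the smallest library, the log2 fold change was -0.075 for Tgfbr1 and -0.26 for Tgfbr2, beside a median of -0.47 over all genes tested there.

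The signal transducer Smad3 and the inhibitor Smad7 both had higher means in HADA, and Smad7 alone of this pair had groups that did not overlap. Smad3 (ENSMUSG00000032402, chromosome 9, 63554049 to 63665276, minus strand) had 8.36, 36.1, 92.0 and 40.1 CPM in HADA replicates 1 to 4 and 19.3, 10.7, 7.37 and 4.75 CPM in control replicates 1 to 4. HADA replicate 1 fell within the control range. The log2 fold change was 2.08 ± 0.92 (SE) (edgeR, adjusted p = 0.175). DESeq2 gave an adjusted p of 0.045 and edgeR without control replicate 1 gave 0.044, in a range of 0.044 to 0.967 over 17 alternatives. Smad7 (ENSMUSG00000025880, chromosome 18, 75500600 to 75529006, plus strand) had 128, 117, 292 and 138 CPM in HADA replicates 1 to 4. Its control libraries had 90.7, 1.91, 58.5 and 80.1 CPM, with control replicate 2 far below the other controls. In edgeR the log2 fold change was 1.55 ± 0.97 (SE) and did not pass in any of the settings tried (edgeR, adjusted p = 0.292). The means were 169 ± 82.4 CPM in HADA and 57.8 ± 39.6 CPM in control (SD, n = 4).

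Il10 and Ebi3, the genes of the inhibitory cytokine IL-10 and of a shared subunit of IL-35 and IL-27, were left untested by the low-count filter when all libraries were used. Il10 (ENSMUSG00000016529, chromosome 1, 130947582 to 130952711, plus strand) had 7, 11, 6 and 4 counts in HADA replicates 1 to 4 and 0, 31, 13 and 6 counts in control replicates 1 to 4. These were between 0.24 and 0.461 CPM in HADA and up to 0.971 CPM in control. A count of 0 in control replicate 1 allows up to 3 counts, or 1.86 CPM, which is above every value measured in the other libraries. Il10 passed the filter in 5 fits that left out 1 library, with log2 fold changes of -0.79 to -0.43. Without control replicate 1 it was -0.68 ± 0.54 (SE) (edgeR, adjusted p = 0.336, the lowest of 6 alternatives that reached up to 0.807).

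Ebi3 (ENSMUSG00000003206, chromosome 17, 56259640 to 56264022, plus strand) had 9, 6, 4 and 186 counts in HADA replicates 1 to 4 and 4, 3, 2 and 2 counts in control replicates 1 to 4. HADA replicate 4, at 11.2 CPM, was the only library above 2.49 CPM. Other genes cover 51.4% of the Ebi3 span, so only part of the gene could be counted. With no filter on low counts, neither gene passed the thresholds (edgeR, adjusted p = 0.807 for Il10 and 0.229 for Ebi3).

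Areg encodes amphiregulin, a growth factor of the EGF family, and Csf1 encodes the growth factor of macrophages. Areg (ENSMUSG00000029378, chromosome 5, 91287458 to 91296291, plus strand) had 20.8, 9.55, 8.39 and 0.541 CPM in HADA replicates 1 to 4. It had 0, 2.47, 1.57 and 1.80 CPM in control replicates 1 to 4. HADA replicate 4, with 9 counts, fell below control replicates 2 to 4, and the other HADA libraries lay above all controls. The fitted log2 fold change was 2.63 ± 1.04 (SE) (edgeR, adjusted p = 0.147). DESeq2 gave an adjusted p of 0.035, in a range of 0.035 to 0.378 over 14 alternatives. Without HADA replicate 1 the log2 fold change was 1.86.

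Csf1 (ENSMUSG00000014599, chromosome 3, 107648364 to 107667785, minus strand) had 69.9, 6.99, 66.9 and 91.0 CPM in HADA replicates 1 to 4 and 17.4, 2.63, 0.978 and 1.10 CPM in control replicates 1 to 4. HADA replicate 2 was the low HADA library and lay under control replicate 1, which had 28 counts. The means were 58.7 ± 36.1 CPM in HADA and 5.53 ± 7.95 CPM in control (SD, n = 4). The log2 fold change was 3.48 ± 1.22 (SE) (edgeR, adjusted p = 0.120). DESeq2 gave an adjusted p of 0.0042, and edgeR without control replicate 1 gave a log2 fold change of 5.38 with an adjusted p of 0.012. With single libraries left out the log2 fold change was 3.12 to 5.38, and over 17 alternatives the adjusted p of Csf1 ranged from 0.0042 to 0.962.

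Per kb of gene span, introns included, the mean level in HADA was highest for Smad7 at 5.94 CPM per kb, followed by Tgfbr2 at 4.54, Lrrc32 at 3.04 and Csf1 at 3.02 CPM per kb. In control it was highest for Tgfb1 at 2.505 CPM per kb, most of it from replicate 3, followed by Tgfbr2 at 2.42 and Smad7 at 2.03 CPM per kb. Without control replicate 1 the mean was 1.33 CPM per kb for Tgfbr2 and 1.65 CPM per kb for Smad7, so their order turned. Il10 had the lowest level in HADA at 0.065 CPM per kb. In control it was at 0.086 CPM per kb, also the lowest, but at 0.115 CPM per kb without control replicate 1, above Ebi3, Lrrc32, Smad3 and Csf1, which were at 0.021 to 0.081 CPM per kb. Neighbours in these orders overlapped between libraries.

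Of the 10 genes, 8 passed the filter on low counts and were tested, and Il10 and Ebi3 did not pass it. To be past the thresholds, a gene needed an adjusted p under 0.05 together with a log2 fold change above 1 or below -1. With edgeR 0 of the 8 were past them, while 2.13% of the 21991 genes tested were, 1.65% higher in HADA and 0.477% lower. At an unadjusted p below 0.05, 4 of the 8 were higher in HADA (Lrrc32, Csf1, Areg and Smad3), beside 12% of all genes tested (26.7% in either direction). DESeq2 called these same 4 higher, beside 11.2% of all genes. Without control replicate 1, edgeR tested 9 of the genes and called 3 higher (Lrrc32, Csf1 and Smad3), beside 15.5% of all genes (35.1% in either direction). With the replicate number as a block, edgeR called 0 of the 8, beside 0.768% of all genes, 0.718% of them higher. No tested gene of the 10 was past the thresholds as lower in any of these fits.

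Here the log2 fold change was above 0 for 7 of the 8, as it was for 50.2% of all genes tested. Its median over the 8 was 1.81, and 0.01 over all genes. The groups did not overlap, with HADA above, in 2 of the 8 (Lrrc32 and Smad7), beside 9.13% of all genes (14.8% in either direction). Without control replicate 1, Tgfbr1, Csf1 and the untested Ebi3 also had HADA above all remaining controls, as did 17.1% of all genes.

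**Figure D2:**
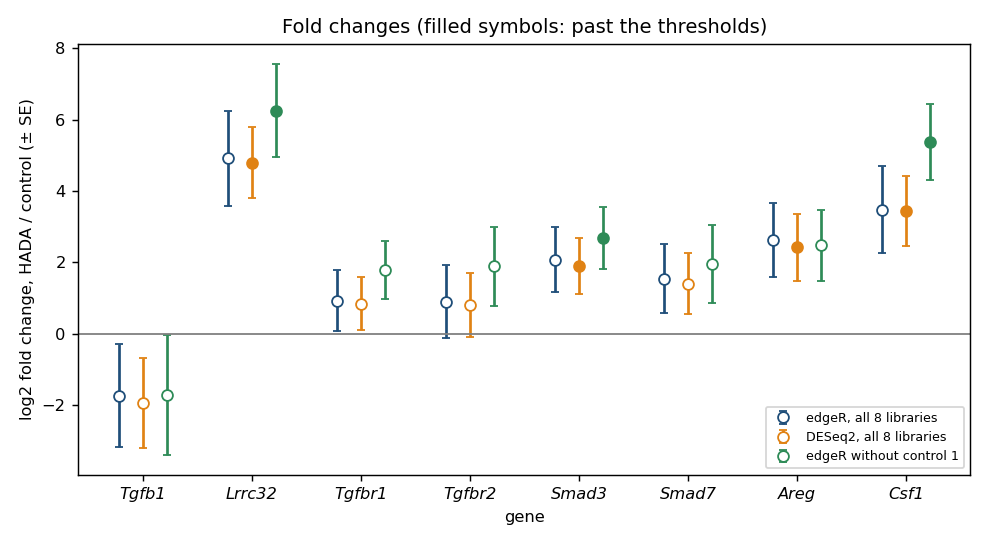
log2 fold change of HADA against control with its SE for the 8 tested genes, by edgeR and DESeq2 on all 8 libraries and by edgeR without control replicate 1; filled symbols are past the thresholds. Lrrc32, Smad3 and Csf1 are filled both with DESeq2 and without control replicate 1, Areg with DESeq2 alone, and none with edgeR on all libraries.

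Counts from whole gene spans include reads that come from no transcript of the gene. Their density was read from 1393 genes of olfactory and vomeronasal receptors free of overlap with other genes, since blood T cells are not known to use these genes. With each library scaled to its total, the density was 0.0753 to 0.193 CPM per kb in HADA, and 0.0537, 0.745, 0.365 and 0.161 in control replicates 1 to 4. TMM was not applied to these densities, so they are not on the scale of the CPM per kb given above. Control replicates 2 and 3, where Tgfbr1 was lowest, had the highest densities, and control replicate 1, whose Tgfbr1 and Tgfbr2 levels lay among the HADA values, had the lowest. Tgfbr2 had 11.2 CPM in control replicate 2 but 319 CPM in control replicate 3. It had 33.1 CPM in control replicate 4, whose density lay within the HADA range. A link between density and level was not tested.

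Multiplied by the part of each span that no other gene covers, this density gives the counts to be met at the receptor gene density. Lrrc32 had 0.094 times that number in control replicate 3, so it can overstate the background of a gene. A count below it does not show that a transcript was absent. Il10 stayed below the number met at this density in 8 of 8 libraries, at 0 to 0.561 times it. Lrrc32 had 2.54 to 73.5 times the number in HADA, 6.85 times in control replicate 1 and 0.094 to 0.216 times in control replicates 2 to 4. Csf1 had 1.94 to 38.9 times in HADA, 18.2 times in control replicate 1 and 0.175 to 0.402 times in the other controls. For both, the 3 deeper control libraries were below the background and the shallow one was not. Ebi3 was above the background in HADA replicate 4, at 43.6 times, and in control replicate 1, at 23.7 times with 4 counts.

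Tgfbr1, Tgfbr2 and Smad7 were above the background in 4 of 4 HADA libraries, with at least 9.06 times for Tgfbr1. Control replicate 2 was below it for all 10 genes. Smad3 had 0.357 to 4.85 times the background in HADA, 3.52 times in control replicate 1 and 0.212 to 0.287 times in the other controls. Areg had 0.509 to 11.2 times in HADA and 0 to 1.01 times in control. Each of these 2 genes was above the background in 4 of 8 libraries. For subtraction, the density was applied to the whole span of each gene, parts covered by other genes included. After subtraction, the log2 fold change was 4.95 for Lrrc32, 3.56 for Csf1, 2.77 for Smad3 and -3.01 for Tgfb1. It was 1.11 for Smad7, 0.98 for Tgfbr1 and 0.32 for Tgfbr2, beside a median of 1.0002 over all genes tested in that fit, and none was past the thresholds by edgeR.

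**Figure D3:**
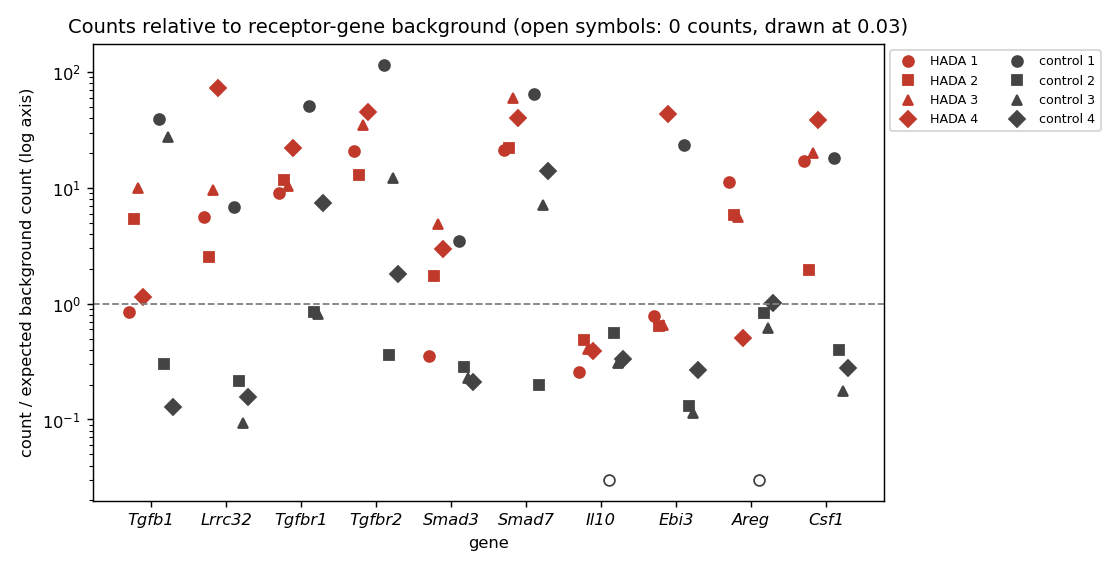
Counts of each gene divided by the counts to be met over its uncovered span at the density of the receptor genes, per library on a log axis; the dashed line marks 1. Il10 lies under the line in all 8 libraries, and control replicate 2 lies under it for every gene.

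The pathway has 50 further genes in a list of ligands and release factors, receptors, SMADs, inhibitors and other regulators, and response genes. edgeR tested 45 of them, and 2 rose in HADA and 0 fell, beside 1.65% and 0.477% of all genes. Without control replicate 1 it tested 46 and called 3 higher and 0 lower, beside 15.5% and 19.7% of all genes. Tgfbr3, or betaglycan, is a co-receptor that presents TGF-beta to the type II receptor. It had 2889, 3182, 2210 and 1946 CPM in HADA replicates 1 to 4 and 167, 31.7, 48.1 and 125 CPM in control replicates 1 to 4. Every HADA library lay far above every control library. Its log2 fold change was 4.78 ± 0.79 (SE) (edgeR, adjusted p = 0.013), and it passed in 5 of 8 fits that left out 1 library. Other genes cover 4.68% of the Tgfbr3 span.

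Id3, an inhibitor of E protein transcription factors that responds to TGF-beta family signals, had 47.2, 5.82, 34.8 and 27.2 CPM in HADA and 1.86, 0.063, 0.035 and 0.116 CPM in control. The control libraries held 1 to 3 counts each. Summed over libraries, 2378 counts in HADA stood against 8 in control. Scaled by TMM-normalized library sizes, that was a ratio of 285 (95% exact interval 145 to 661, for counting error only). This ratio weights libraries by size, and control replicate 1 was the highest control by CPM. The group means were 28.8 ± 17.4 CPM in HADA and 0.519 ± 0.897 CPM in control (SD, n = 4). The fitted log2 fold change was 6.76 ± 1.52 (SE) with all libraries and 8.75 without control replicate 1. edgeR placed Id3 past the thresholds with all libraries (adjusted p = 0.042) and in 1 of 8 fits that left out 1 library. Without control replicate 3, neither Tgfbr3 nor Id3 passed, and the calls among all genes fell from 363 to 28 higher.

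Of the 12 ligand and release genes tested, 0 were past the thresholds by edgeR and their median log2 fold change was 0.04. Those with the smallest p were the ligands Tgfb3 at 1.31 and Tgfb2 at -1.19 on the log2 scale, and Ltbp1, which binds latent TGF-beta in the matrix, at -1.21 (edgeR, adjusted p = 0.225, 0.241 and 0.260). At an unadjusted p below 0.05 there were 0, and DESeq2 called 1 (Ltbp1, lower). Of the 10 other receptor genes, Tgfbr3 was the one past the thresholds by edgeR, and the median was 1.25. DESeq2 called 2 of them higher, beside 11.2% of all genes.

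Of the 6 other SMADs, 0 were past the thresholds by edgeR, by DESeq2 or at an unadjusted p below 0.05. Smad5, which carries BMP signals, had 1.39 on the log2 scale, the shared partner Smad4 had 1.21, and Smad2, which TGF-beta receptors phosphorylate, had 1.10 (edgeR, adjusted p = 0.315, 0.355 and 0.418). Without control replicate 1, Smad2 was past the thresholds with a log2 fold change of 2.71 (edgeR, adjusted p = 0.017, in a range of 0.017 to 0.977 over 17 alternatives). Of the 9 tested genes in the list of inhibitors and other regulators, 0 were past them by either tool or at an unadjusted p below 0.05. The ubiquitin ligase Smurf1 had 1.08, the SMAD corepressor Ski 1.29 and Fkbp1a, which binds the type I receptor, 1.19 on the log2 scale (edgeR, adjusted p = 0.365, 0.390 and 0.413). Among the 8 tested response genes Id3 was past them, with a median of 1.01. Over all 45 the log2 fold change was above 0 for 30, beside 50.2% of all genes, and the median was 0.71, against 0.01. HADA lay wholly above control in 4 of the 45 and wholly below in 1. Among all genes tested, these shares were 9.13% above and 14.8% in either direction.

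**Figure D4:**
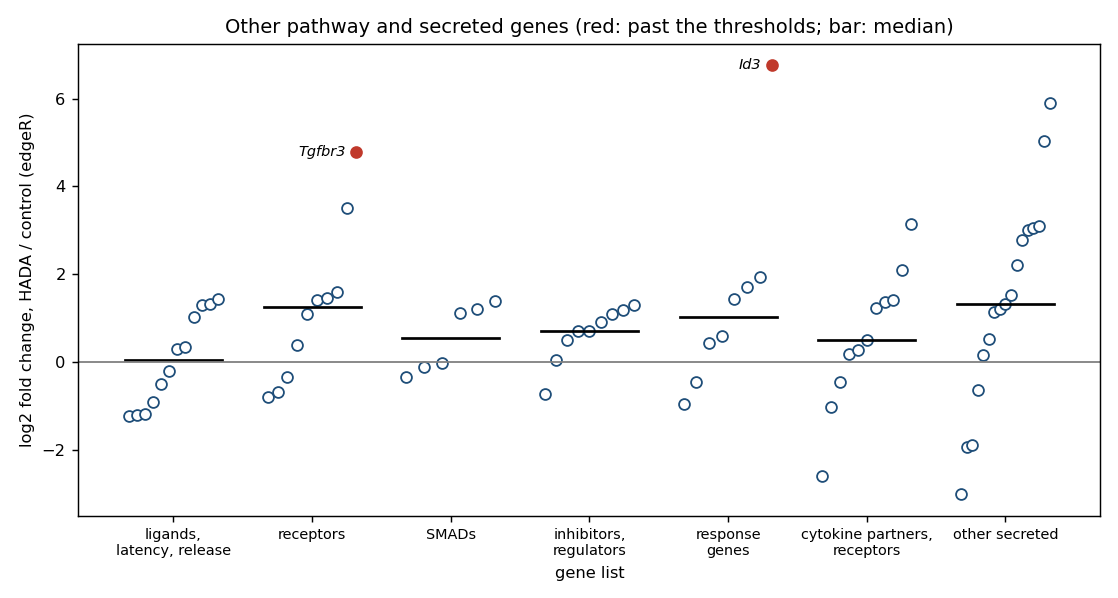
log2 fold change (edgeR) of the other TGF-beta pathway genes and of the cytokine and secreted genes, 1 point per tested gene, with the median of each list as a bar. Tgfbr3 at 4.78 and Id3 at 6.76 are the red points past the thresholds.

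A further 36 genes encode partners and receptors of these cytokines or other secreted products of T cells. edgeR tested 28 and called 0, beside 2.13% of all genes tested. At an unadjusted p below 0.05, 5 were higher and 2 lower in HADA, beside 12% of all genes higher and 26.7% in either direction. DESeq2 called 5 higher and 3 lower, and edgeR without control replicate 1 called 4 higher and 3 lower. In all genes DESeq2 called 11.2% higher and 19.3% lower, and edgeR without control replicate 1 called 15.5% and 19.7%.

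Il27ra, a receptor chain of IL-27, had 41.5, 23.7, 64.1 and 78.9 CPM in HADA replicates 1 to 4 and 13.7, 1.25, 7.34 and 1.80 CPM in control replicates 1 to 4. All HADA libraries lay above all controls, with a log2 fold change of 3.15 ± 0.996 (SE) (edgeR, adjusted p = 0.103). Il10rb, a chain of the IL-10 receptor, had 2.10 (edgeR, adjusted p = 0.227), and other genes cover 67.6% of its span. Il27, whose product pairs with EBI3 to form IL-27, had -2.60 (edgeR, adjusted p = 0.334) with 2161 of its counts in control replicate 4. Leaving out single libraries moved it from -4.62 to 1.86, the latter without control replicate 4.

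Among the other secreted products, the lectin gene Lgals1 had 259 to 695 CPM in HADA and 11.8 to 108 CPM in control, with a log2 fold change of 3.01 ± 0.87 (SE) (edgeR, adjusted p = 0.085). Ccl3 and Ccl4 encode inflammatory chemokines. Ccl3 had 112 to 434 CPM in HADA and 0 to 14.9 CPM in control (edgeR, adjusted p = 0.082), and other genes cover 56.4% of its span. Ccl4 had 124 to 365 CPM in HADA and 0.232 to 29.8 CPM in control (edgeR, adjusted p = 0.093). The groups did not overlap in any of these 3 genes, which had the smallest p of their list, and none was past the thresholds with all libraries. Of the 28 tested cytokine and secreted genes, 4 had HADA wholly above control and 2 wholly below. Among all genes tested, 9.13% had HADA above and 14.8% lay apart in either direction.

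Markers of other blood cells were present in both groups. Sums over each marker list were compared with an exact two-sided permutation test, whose smallest p for 4 libraries against 4 is 0.029, and p was adjusted over 6 lists, so that a single list could not pass after adjustment. The T cell and Treg list, in which Foxp3 and Tnfrsf18 were listed at 0, summed to 1495 to 3694 CPM in HADA and 285 to 1194 CPM in control (exact p = 0.029, adjusted p = 0.114). Its most abundant genes were Cd3d, with a log2 fold change of 2.70, and Ikzf2, with 1.29 (edgeR, adjusted p = 0.085 and 0.225). At an unadjusted p below 0.05, edgeR had 3 of the 6 tested markers higher in HADA, beside 12% of all genes. DESeq2 called 3 higher, beside 11.2% of all genes. Past the thresholds, edgeR called 0 with all libraries and 3 higher without control replicate 1, beside 1.65% and 15.5% of all genes. HADA replicate 4 had the highest T cell and Treg sum and the highest Lrrc32 and Csf1, but also the lowest Tgfb1 and Areg of the HADA libraries. HADA replicate 3 had the next highest sum and the highest Smad3.

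The 8 CD8 and NK cell markers summed to 78.9 to 655 CPM in HADA and 5.97 to 93.5 CPM in control (exact p = 0.057, adjusted p = 0.114). At an unadjusted p below 0.05, edgeR had 4 of the 6 tested markers higher in HADA, beside 12% of all genes. DESeq2 called 3 higher, beside 11.2%. Past the thresholds, edgeR called 1 higher with all libraries and 2 of 7 tested without control replicate 1, beside 1.65% and 15.5% of all genes. The highest sum was again in HADA replicate 4, which also had the highest Ebi3 and, as given below, the highest B cell sum at 7857 CPM. The most abundant were Nkg7 (edgeR, log2 fold change 5.28, adjusted p = 0.149) and Cd8b1, which was past the thresholds (edgeR, log2 fold change 4.97, adjusted p = 0.030). The 13 platelet markers summed to 375 to 1876 CPM in HADA and 80.0 to 758 CPM in control (exact p = 0.086, adjusted p = 0.129). Platelets are a known store of TGF-beta and carry GARP. Their part in the Lrrc32 and Csf1 levels was not tested, and values of single libraries cannot settle it. HADA replicate 2 had the lowest platelet sum, Lrrc32 and Csf1 of its group. HADA replicate 1, with the highest platelet sum, had less Lrrc32 than HADA replicates 3 and 4. Control replicate 4 had a platelet sum of 661 CPM, above that of HADA replicate 2, with Lrrc32 at 0.406 CPM and Csf1 at 1.10 CPM. Of this list Ppbp and Pf4 were the most abundant (edgeR, log2 fold change 2.67 and 2.26, adjusted p = 0.224 and 0.117). Of its 11 tested genes, 4 were higher in HADA at an unadjusted p below 0.05 (edgeR), beside 12% of all genes. DESeq2 called 4 higher, beside 11.2%. Past the thresholds, edgeR called 0 with all libraries and 2 higher without control replicate 1, beside 1.65% and 15.5% of all genes.

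The 14 myeloid markers, led by Lyz2 and Cybb, summed to 1522 to 4222 CPM in HADA and 166 to 2975 CPM in control (exact p = 0.286, adjusted p = 0.343). Of the 13 tested, edgeR called 0 with all libraries and 2 higher without control replicate 1, beside 1.65% and 15.5% of all genes. The 10 B cell markers, led by Ighm and Cd79a, summed to 2376 to 7857 CPM in HADA and 278 to 6614 CPM in control (exact p = 0.343, adjusted p = 0.343), with Ms4a1 listed at 0. Of the 9 tested, edgeR called 0 with all libraries and 1 higher without control replicate 1, beside the same shares of all genes. The 8 erythroid markers, led by Hba-a1 and Hbb-bs, went the other way, with 154 to 2821 CPM in HADA and 1063 to 28932 CPM in control (exact p = 0.057, adjusted p = 0.114), and Alas2 was listed at 0. All 7 tested erythroid genes were lower at an unadjusted p below 0.05 (edgeR), as were 3233 of the 21991 genes tested. DESeq2 called all 7 lower, beside 19.3% of all genes. Their median log2 fold change was -3.45 (edgeR). edgeR called 0 of the 7 with all libraries and 2 lower without control replicate 1, beside 0.477% and 19.7% of all genes. The part of these cells in the levels of the 10 genes was not tested.

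**Figure D5:**
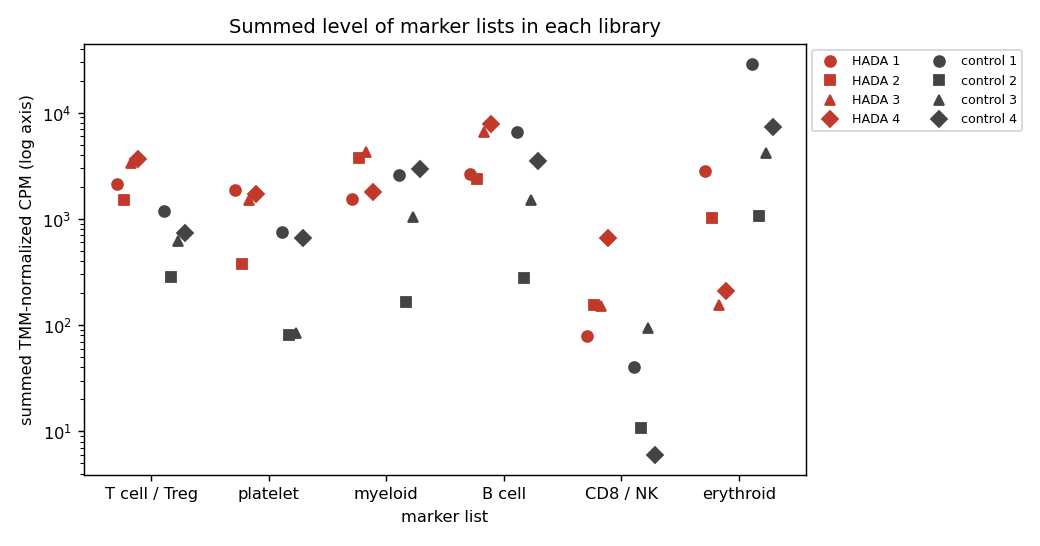
Summed TMM-normalized CPM of each marker list in each library, on a log axis. The T cell and Treg sum is at 1495 CPM or above in the HADA libraries and at 1194 CPM or below in the control libraries, while the other lists overlap between groups.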

How the data were processed

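Peripheral blood Tregs were measured by RNA-seq in 8 libraries, 4 HADA and 4 control, grouped and numbered from their labels. Per the labels and the study's methods, FastQC was used for read quality, Trimmomatic for trimming, STAR for alignment (GRCm39) and featureCounts for counting. The values the authors deposited are raw counts per gene, without normalization, for 56980 genes. The length column equals the whole span for 100% of them, so counts include introns. Strand and multi-mapping settings were not given in the sources used here. Names came from GENCODE vM39 (98.7% of identifiers found), and coordinates are those of the deposited table. No pair of libraries had identical counts.

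Counts were tested with edgeR 4.0.16 in R 4.3.3 (TMM, filterByExpr, quasi-likelihood test, no covariates) on 21991 genes, and with DESeq2 1.42.0 and limma 3.58.1 as alternatives. The thresholds were 0.05 for the adjusted p and 1 for the absolute log2 fold change. Sums over marker lists were compared by exact permutation tests in Python 3.11.15 with scipy 1.17.1. The edgeR, DESeq2 and limma fits were run on simulated counts with the same dispersion for every gene, which cannot show how each tool behaves on these libraries. The floor is 3 counts per library, and intervals cover counting error only. Library totals were 1477431 to 28240337 counts. Other alternatives were DESeq2's size factors, a minimum of 10 counts per library or none, and drawing down to the smallest total (seed 1). Subtraction of the receptor gene background over whole spans, a replicate block, and leaving out single libraries were also tried.

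The genes and all lists were chosen with earlier results of these data known. Outside the 10 genes, each list is named by its genes past the thresholds, or otherwise by the 3 with the smallest p, and each marker list by the 2 with the highest mean CPM, beside Foxp3, Il2ra and Cd4.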

Additional observations from a re-analysis of the deposited data

Results flagged for a closer look

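Groups of 4 libraries were checked for a library far from the other 3 on the log2(CPM + 1) scale, for each of the 10 genes and each marker sum. Of 32 groups checked, 5 held such a library, and chance gives about 1 in 20. Control replicate 2 was low for Smad7, at 1.54. HADA replicate 4 was high for Ebi3 within HADA, at 3.61. Control replicate 1 was high for Ebi3 within control, at 1.80, on 4 counts. HADA replicate 2 was low for Csf1, at 2.999. HADA replicate 2 was also low for the platelet sum, at 8.55.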

How the results depend on the processing

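Of the 10 genes, 0 were past the thresholds with all libraries, 4 with the DESeq2 test, and 0 to 3 when 1 library was left out, with 3 only without control replicate 1. The fold changes of Lrrc32, Smad3, Smad7, Areg and Csf1 kept their sign in every setting that could give a value. That of Tgfb1 was -2.41 to 0.19 with 1 library left out, the highest without control replicate 3, and those of Tgfbr1 and Tgfbr2 were -0.075 and -0.26 with libraries drawn down to the smallest total. The median of all genes was -0.19 with DESeq2's size factors, -0.47 drawn down and 1.0002 after background subtraction, against 0.01 with TMM. The 2 further TGF-beta pathway calls became 4 with DESeq2, 1 with at least 10 counts in every library, 0 after background subtraction, and 0 to 3 with 1 library left out. The 0 calls among cytokine and secreted genes became 8 with DESeq2, 4 with limma on log2(CPM + 1), 2 on log2(CPM + 0.1), 2 drawn down, and 0 to 7 with 1 library left out.

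Over all genes, 363 were higher and 105 lower. The higher count was 2457 with DESeq2, 93 with at least 10 counts, 814 with limma on log2(CPM + 1), 107 drawn down, 113 after background subtraction, and 28 to 3716 with 1 library left out. The lower count was 4247 with DESeq2, 54 without a filter, 30 with limma on log2(CPM + 0.1), and 1 to 4732 with 1 library left out. The cause was not tested. The T cell and Treg sum differed by 1964 CPM, by 621 drawn down, and by 1626 to 2487 with 1 library left out, where 4 against 3 cannot go below an exact p of 0.057. Drawn down, the myeloid and B cell differences were -473 and -805 CPM. The erythroid difference was -11278 CPM drawn down and -11424 after background subtraction, both then past an unadjusted p of 0.05.

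The labels do not say whether the replicate numbers shared by both groups pair the libraries. Correlations of deviations from the group means were -0.207, 0.252, -0.0805 and -0.00316 for same-numbered libraries. For libraries with different numbers they ranged from -0.261 to 0.248. With so few libraries, these values cannot decide whether the numbers pair them. With the replicate block, 158 genes were higher and 11 lower, 0 of the 10 genes and 1 cytokine or secreted gene were past the thresholds, and 2 pathway genes were. Control replicate 1 was the shallowest library, where 3 counts equal 1.86 CPM.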
